A study of Mus musculus with 4 samples.

Results

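The variable (V) genes of the immunoglobulin light chains were followed in leukocytes of subcutaneous KPC tumours, which grow from a mouse pancreatic cancer line. All 163 genes of the count matrices whose symbol starts with Igkv or Iglv were members, 160 of the kappa and 3 of the lambda locus. Usage was read in cells with 20 or more unique molecular identifiers (UMIs) of these genes, of which 80% or more came from 1 gene, called the dominant gene. Of 55090 deposited cells, 1067 held 20 or more light-chain V UMIs and 1019 also met the 80% rule. These 1019 are the chosen cells below.

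Live CD45+ cells were sorted from tumours of C57BL/6 male mice that were 8 to 10 weeks old, and 10 tumours were pooled in each group, so each group was 1 library in the series analysed here, and no difference between groups has a replicate in it. The methods describe a further single-cell experiment, which was not analysed here. The untreated group carried the tumour only. The STING agonist group received 2 µg of ADU-S100, an agonist of the DNA-sensing adaptor STING, once into the tumour on day 0. The LTβR agonist group received 100 µg of the antibody 4H8, which activates the lymphotoxin-β receptor, into the peritoneum every 3 to 4 days, 4 times until day 10, and the combination group received both agents. All tumours were taken on day 14. Sets of 4 values are in the order untreated, STING agonist, LTβR agonist, combination. Intervals are exact Clopper-Pearson 95% intervals for shares and log-normal 95% intervals for ratios, and they cover counting error only.

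Each B cell builds its light chain by joining 1 V gene to a short joining (J) gene, at the kappa locus first and at the lambda locus if kappa joining fails, and the joined product is spliced to a constant gene. One light chain is then kept in nearly every cell, a property called allelic and isotypic exclusion. Plasma cells, the antibody-secreting end stage of the lineage, fill a large part of their messenger RNA with that single chain. Cells descended from 1 founder share their V gene, so a V gene that many cells carry can mark an expanded family as well as a preference for the gene.

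Reads of close relatives within the loci are told apart by few bases. The last 285 coding bases of the V genes on which the results turn are printed as they stand in GENCODE M21 (build GRCm38), from 5′ to 3′ on the coding strand, with capitals at the bases that differ from the partner printed beside each. The pair Iglv1 (chr16:19085017-19085301, minus strand) and Iglv2 (chr16:19260401-19260685, minus strand), which were spread differently over the isotypes, differed at 7 bases and were 97.5% identical in this window of their second coding exon.
Iglv1: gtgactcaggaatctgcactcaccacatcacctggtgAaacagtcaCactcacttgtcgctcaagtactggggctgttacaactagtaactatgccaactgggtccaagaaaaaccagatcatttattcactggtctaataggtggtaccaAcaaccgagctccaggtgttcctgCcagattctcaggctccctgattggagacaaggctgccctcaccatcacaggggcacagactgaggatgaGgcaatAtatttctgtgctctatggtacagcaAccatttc
Iglv2: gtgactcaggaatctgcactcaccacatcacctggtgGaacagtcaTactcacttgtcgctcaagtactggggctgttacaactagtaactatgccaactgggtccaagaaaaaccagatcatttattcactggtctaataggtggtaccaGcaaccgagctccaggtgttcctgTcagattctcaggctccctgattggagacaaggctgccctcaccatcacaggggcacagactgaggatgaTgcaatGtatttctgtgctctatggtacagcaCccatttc

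The kappa genes Igkv12-44 (chr6:69814631-69814915, minus strand) and Igkv12-46 (chr6:69764523-69764807, minus strand) differed at 15 bases, with 94.7% identity. They are shown because the former led one treated library and the latter stood out in another.
Igkv12-44: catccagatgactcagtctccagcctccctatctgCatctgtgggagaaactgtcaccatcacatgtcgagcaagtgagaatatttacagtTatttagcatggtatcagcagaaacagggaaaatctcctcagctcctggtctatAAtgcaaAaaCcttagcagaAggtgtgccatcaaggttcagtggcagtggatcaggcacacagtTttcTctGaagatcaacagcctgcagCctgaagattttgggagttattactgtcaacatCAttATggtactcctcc
Igkv12-46: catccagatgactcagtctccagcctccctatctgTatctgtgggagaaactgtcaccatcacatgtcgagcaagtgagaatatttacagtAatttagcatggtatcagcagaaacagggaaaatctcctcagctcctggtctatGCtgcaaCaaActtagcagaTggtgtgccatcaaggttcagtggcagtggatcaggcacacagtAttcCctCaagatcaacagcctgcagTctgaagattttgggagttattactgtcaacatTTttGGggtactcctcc

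Igkv4-74 (chr6:69184826-69185110, minus strand) and Igkv4-57-1 (chr6:69544359-69544643, minus strand), which shared a heavy-chain partner in untreated tumours, differed at 20 bases, with 93.0% identity.
Igkv4-74: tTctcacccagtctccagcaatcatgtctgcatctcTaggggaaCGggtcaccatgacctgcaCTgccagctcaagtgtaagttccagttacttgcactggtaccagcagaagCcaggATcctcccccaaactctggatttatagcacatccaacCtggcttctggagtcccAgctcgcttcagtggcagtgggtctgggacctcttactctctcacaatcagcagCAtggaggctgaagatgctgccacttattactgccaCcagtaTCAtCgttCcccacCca
Igkv4-57-1: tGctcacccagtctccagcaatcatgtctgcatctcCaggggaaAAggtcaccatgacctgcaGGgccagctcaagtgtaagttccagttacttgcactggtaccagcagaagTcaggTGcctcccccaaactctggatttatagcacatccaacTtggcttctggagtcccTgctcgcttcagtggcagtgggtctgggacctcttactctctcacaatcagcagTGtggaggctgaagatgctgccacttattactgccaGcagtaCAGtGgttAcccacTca

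Igkv8-30 (chr6:70117061-70117345, minus strand), frequent with the combination, and Igkv14-126 (chr6:67896358-67896642, plus strand), the light chain of a well-known B-1 cell antibody, are printed with no partner and no capitals.
Igkv8-30: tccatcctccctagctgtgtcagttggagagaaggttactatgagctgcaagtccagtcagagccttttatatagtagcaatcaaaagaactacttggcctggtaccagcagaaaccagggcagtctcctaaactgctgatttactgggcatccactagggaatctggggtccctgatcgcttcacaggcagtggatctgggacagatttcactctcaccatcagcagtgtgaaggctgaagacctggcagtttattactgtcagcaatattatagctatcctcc
Igkv14-126: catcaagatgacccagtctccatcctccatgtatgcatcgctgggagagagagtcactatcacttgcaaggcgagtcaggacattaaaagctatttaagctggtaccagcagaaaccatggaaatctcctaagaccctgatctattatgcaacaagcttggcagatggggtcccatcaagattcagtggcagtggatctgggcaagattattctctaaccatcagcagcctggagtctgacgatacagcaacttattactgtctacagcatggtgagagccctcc

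Despite the identity of these windows, partners shared few UMIs in most of the cells and more in some. Igkv4-74 cells of the untreated library held 23368 UMIs of Igkv4-74 and 0 of Igkv4-57-1, and Igkv4-57-1 cells held 4181 UMIs of their own gene and 0 of Igkv4-74, whereas 2 of the 12 Igkv4-74 cells of the combination held an Igkv4-57-1 UMI each. In LTβR agonist tumours, the 61 Igkv12-44 cells held 112755 UMIs of that gene and 3 of Igkv12-46. In the other direction, 20 of the 32 Igkv12-46 cells of the combination held Igkv12-44 UMIs, 460 beside 33068 of their own gene and up to 16.1% in a cell. Iglv2 cells held 4.26 Iglv1 UMIs per 100 Iglv2 UMIs with the LTβR agonist and 2.01 with the combination, and Iglv1 cells of the combination held up to 11.1% of Iglv2. Of the 103 members annotated as V genes rather than pseudogenes, 47 had another member at 95% identity or more in this window, so usage of single genes such as Igkv5-43, which is 98.95% identical to Igkv5-45, and Igkv1-110, 96.84% identical to Igkv1-117, is uncertain to that extent.

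Chosen cells were rarer after the STING agonist and more frequent in both groups given the LTβR agonist. They numbered 84, 54, 319 and 562 among 8730, 15404, 14634 and 16322 deposited cells. As a share of deposited cells this was 0.962% (0.768 to 1.19), 0.351% (0.263 to 0.457), 2.18% (1.95 to 2.43) and 3.44% (3.17 to 3.73). Relative to untreated, the share was 0.364 times (0.259 to 0.512) with the STING agonist, 2.27 times (1.78 to 2.88) with the LTβR agonist and 3.58 times (2.85 to 4.49) with the combination. The 4 intervals of the share do not overlap. With each cell thinned to 2000 UMIs, shallower cells left out, the ratios were 0.534, 3.22 and 6.54. Each lay above its interval given here, and the combination ratio moved by more than 1.5 times.

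By their markers the chosen cells were almost all plasma cells. At least 2 of 8 plasma cell markers were detected in 95.2, 100, 98.7 and 98.4% of them, and Jchain, which links IgM and IgA into polymers, in 94.0, 96.3, 98.7 and 97.0%. Ms4a1, the CD20 gene of mature B cells, was seen in 14.3, 18.5, 19.7 and 16.2%. Cells with more B cell than plasma cell markers numbered 0, 2, 2 and 10, and their light-chain V UMIs made up a median of 0.597, 0.430 and 1.19% of the cell's UMIs in the 3 treated libraries, against 15.2, 9.65 and 9.95% in cells with more plasma cell markers. The rule therefore reads usage in plasma cells, and B cells with few light-chain UMIs fall outside it. At least 2 of 5 macrophage markers were detected in 20.2, 22.2, 16.6 and 18.7% of chosen cells, and requiring more B lineage than other markers in a cell moved none of the 20 values recomputed beyond their intervals or, for effective numbers, by more than 1.5 times.

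The depth of the call was high. Libraries held 52109958 to 85855398 UMIs, and chosen cells held a median of 728, 2900.5, 1049 and 557.5 light-chain V UMIs, of which the dominant gene gave a median of 98.4, 99.2, 98.3 and 98.1%. Light-chain V UMIs were also read in other cells, and their source there was not tested. Among 840, 392, 1331 and 831 cells with T cell markers and at most 1 B lineage marker, 25.1, 23.98, 44.5 and 64.1% held such a UMI, the 95th percentile was 1 to 3 UMIs and none reached 20. Among 2078, 2692, 3052 and 3672 cells with macrophage markers and at most 1 B lineage marker, 24.1, 20.8, 42.7 and 58.5% held one, and 1 untreated cell reached 20 and was a chosen cell. At the border of the rule, 0, 4, 5 and 11 chosen cells held 20 to 24 V UMIs, and 4, 3, 6 and 25 cells with 15 to 19 V UMIs fell just outside it. No barcode was a chosen cell in more than 1 library, and 12 chosen cells had a barcode that also occurs in another library.

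The usage of single V genes was concentrated, and different genes had the highest count in the 4 libraries. Of the 163 members, 114 had a UMI and 68 were dominant in some chosen cell. None of the 60 pseudogenes was dominant. Only 8 genes were dominant in all 4 libraries, while 18 were dominant in 1. Few cells limit such sharing, as the 54 STING agonist cells held 18 dominant genes, and 7 genes were dominant in 1 cell only. Untreated tumours were led by Igkv4-74 with 22 of 84 cells (26.2%, 17.2 to 36.9), STING agonist tumours by Igkv10-96 with 7 of 54 (13.0%, 5.37 to 24.9), LTβR agonist tumours by Igkv12-44 with 61 of 319 (19.1%, 14.95 to 23.9) and combination tumours by Iglv1 with 69 of 562 (12.3%, 9.68 to 15.3). Counted by cells, the first place was not settled in 2 of the libraries. Igkv4-74, Igkv1-117 and Igkv8-21 had 6 cells each in STING agonist tumours, 1 fewer than Igkv10-96. In the combination library Igkv8-30 had 65 cells and stood above Iglv1 at 50 or more V UMIs, with B cell and plasma cell markers required and after thinning to 2000 UMIs. The lead of Igkv12-44 with the LTβR agonist was one of cells. With each set of light V gene, heavy V gene and isotype counted once, it held 1.77%, against 12.4% for Igkv10-96.

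**Figure D1:**
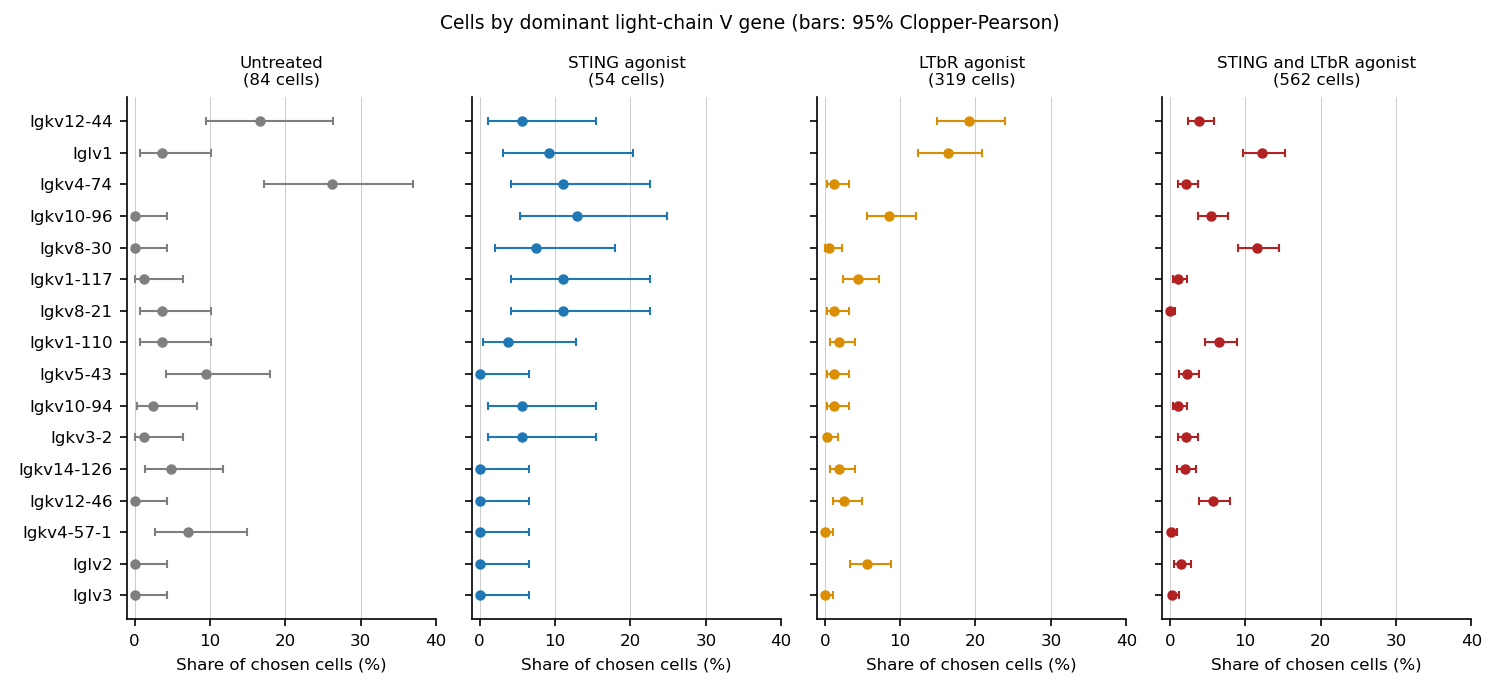
Share of chosen cells (%, horizontal axis) with each named light-chain V gene as dominant gene in the 4 libraries; points are shares and bars exact 95% intervals. Igkv4-74 stood at 26.2% in the untreated library and at 1.25 and 2.14% in the LTβR agonist and combination libraries, and Igkv8-30 at 11.6% in the combination library against 0.627% in the LTβR agonist library.

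Igkv12-44 was the dominant gene of 14, 3, 61 and 22 cells, or 16.7, 5.56, 19.1 and 3.91%. Its share was thus similar in untreated and LTβR agonist tumours and lower with the combination, where the interval (2.47 to 5.87) lay below both. Igkv4-74 went from 22 and 6 cells in the untreated and STING agonist libraries to 4 and 12 in the other two. With 1.25% (0.343 to 3.18) and 2.14% (1.11 to 3.70) its intervals there lay below the untreated one. These are shares of cells. With each set of light V gene, heavy V gene and isotype counted once, Igkv4-74 had 9.68% (2.04 to 25.8) in the untreated library. In that count it had 0.885% with the LTβR agonist and 1.62% with the combination, and Igkv12-44 had 6.45, 6.90, 1.77 and 3.78%.

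Igkv8-30 had 0, 4, 2 and 65 cells. The 65 cells were 11.6% of the combination library, whereas the 0 of 84 untreated cells allow a share of up to 3.57% by a limit of 3 cells, with an exact upper bound of 4.30%. With each set of light V gene, heavy V gene and isotype counted once, Igkv8-30 was 3.24% (1.20 to 6.93) of the combination. Igkv10-96 had 0, 7, 27 and 31 cells and was dominant in every treated library, at 13.0, 8.46 and 5.52%, but in no untreated chosen cell. The untreated library still held 129 UMIs of Igkv10-96 in 104 cells. Igkv12-46 had 0, 0, 8 and 32 cells, so it was dominant in chosen cells of the LTβR agonist and combination libraries alone. Igkv1-110 had 3, 2, 6 and 37.

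Other named genes rested on few cells. Igkv5-43 had 8, 0, 4 and 13 cells, Igkv4-57-1 had 6, 0, 0 and 1, Igkv1-117 had 1, 6, 14 and 6, and Igkv8-21 had 3, 6, 4 and 0. The remaining kappa genes named by the fixed rule had low counts in every library, namely Igkv10-94 with 2, 3, 4 and 6 cells, Igkv3-2 with 1, 3, 1 and 12, and Igkv14-126 with 4, 0, 6 and 11.

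Diversity also differed between libraries. Cells used 24, 18, 47 and 60 distinct genes, and when each library was brought down to 54 cells by analytic rarefaction, 19.2, 18, 22.0 and 26.3 genes were expected. The effective number of genes (inverse Simpson index for draws without replacement) was 9.03, 15.4, 12.2 and 20.7. It estimates how many equally used genes would give the same chance that 2 cells share a gene, and it can exceed the number of genes seen when few cells share one. The 3 most used genes held 52.4% of untreated cells, 35.2% of STING agonist cells, 43.9% of LTβR agonist cells and 30.4% of combination cells. By the effective number, usage was most concentrated in the untreated library, also under 6 of 8 alternative settings, and least in the combination library, also under 7 of 8. After thinning to 2000 UMIs the LTβR agonist library was the lowest, with 11.99 against 14.01 in untreated, 13.2 in STING agonist and 19.3 in combination cells. With each set of light V gene, heavy V gene and isotype counted once, the untreated library was the highest, at 58.1, and the STING agonist library the lowest, at 20.3. Rarefied gene numbers were also lowest for the STING agonist.

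**Figure D2:**
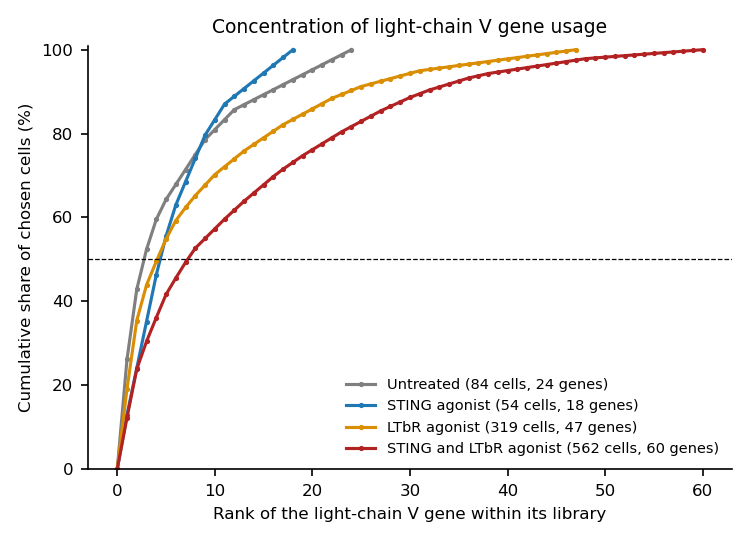
Cumulative share of chosen cells (%, vertical axis) against the rank of the light-chain V gene within its library (horizontal axis), 1 line per library; the dashed line marks 50%. The combination curve rises most slowly, with 41.6% of cells in its 5 leading genes against 64.3% in the untreated library.

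Lambda light chains were most frequent among chosen cells in the groups given the LTβR agonist. The 3 Iglv genes were dominant in 3, 5, 70 and 79 cells. This made lambda 3.57% (0.743 to 10.1), 9.26% (3.08 to 20.3), 21.9% (17.5 to 26.9) and 14.1% (11.3 to 17.2) of chosen cells. The untreated and STING agonist intervals overlapped, and within the cell limits of the study the order of these libraries turned, at 4.92 and 4.17%. The intervals of the LTβR agonist and combination libraries lay above that of the untreated library, and that of the LTβR agonist library also above that of the combination. The LTβR agonist share stayed above that of the combination, and the combination share above the untreated one, under every alternative setting. Only the separation of the LTβR agonist and untreated intervals held under most of them. Under 8 alternative settings, the LTβR agonist interval lay above the untreated one in 7, the combination interval above the untreated one in 2 and the LTβR agonist interval above that of the combination in 2. With each set of light V gene, heavy V gene and isotype counted once, all 4 intervals overlapped, at 6.45, 13.8, 18.6 and 10.3% lambda. Iglv1 gave 3, 5, 52 and 69 of these cells, Iglv2 0, 0, 18 and 8, and Iglv3 0, 0, 0 and 2.

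The lambda genes differed by isotype, mainly through Iglv2. Chosen cells were IgM in 6, 10, 62 and 151 cases, IgG in 71, 39, 220 and 362 and IgA in 7, 5, 37 and 49, with none of IgD or IgE. In LTβR agonist tumours, lambda was 37.1% of IgM cells (25.2 to 50.3) and 16.4% of IgG cells (11.7 to 21.9). With the combination the corresponding values were 12.6% (7.75 to 18.95) and 15.5% (11.9 to 19.6), so the intervals of the isotypes were apart with the LTβR agonist and overlapped with the combination. With 95% of V UMIs required from 1 gene they overlapped with the LTβR agonist too, at 30.6% (18.3 to 45.4) and 19.6% (14.1 to 26.0). Of the 23 IgM lambda cells with the LTβR agonist, 5 had more kappa than lambda constant UMIs and are described with the constant genes. Iglv2 cells were mostly IgM, with 17 of 18 in the LTβR agonist library and 7 of 8 in the combination. Iglv1 cells were IgG in 36 of 52 and 55 of 69 cases, beside 220 of 319 and 362 of 562 of all chosen cells, so that with the LTβR agonist their IgG share was close to the 69.0% of all chosen cells. The IgA cells of LTβR agonist tumours held 11 lambda cells of 37 (29.7%, 15.9 to 47.0).

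**Figure D3:**
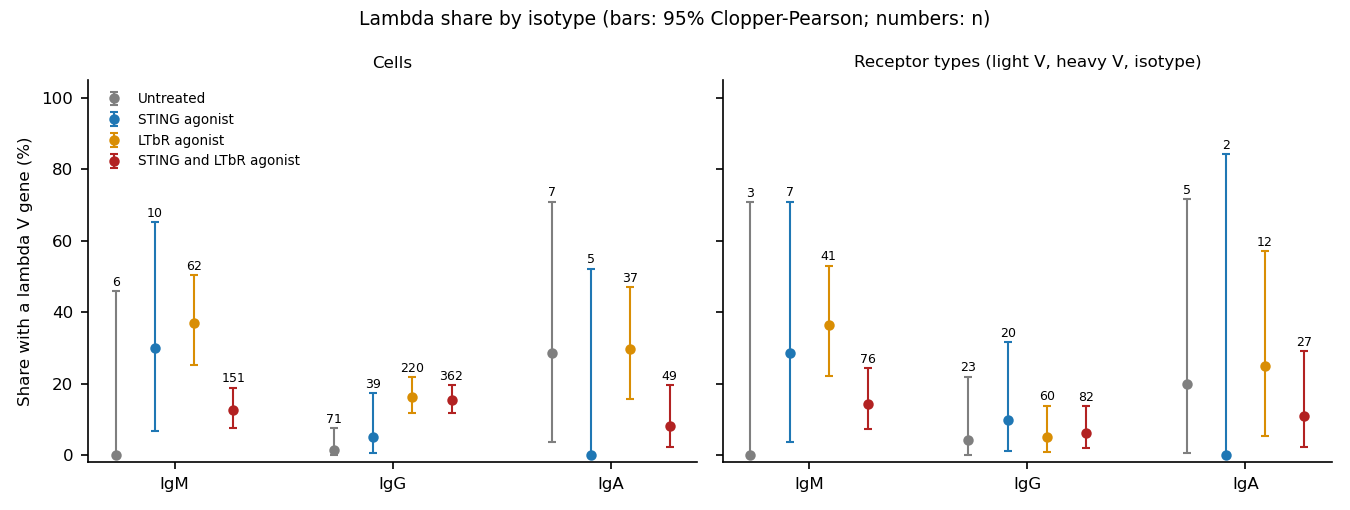
Share of lambda (%, vertical axis) by isotype and library, among chosen cells (left) and among receptor types, each counted once per library (right); bars are exact 95% intervals and the numbers give n. The IgG shares of 16.4 and 15.5% among cells were 5.00 and 6.10% among receptor types.

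Whether a share came from many kinds of receptor or from many cells of a few kinds was read from the heavy chain. A heavy V call needed 10 or more Ighv UMIs with 80% or more from 1 gene, and 82, 51, 284 and 506 chosen cells had one. The matrices hold no junction sequences, so a set of light V gene, heavy V gene and isotype shared by several cells, here called a receptor type, is not a clone. With each receptor type counted once per library, lambda was 36.6% of 41 IgM types and 5.00% of 60 IgG types in LTβR agonist tumours, and 14.5% of 76 and 6.10% of 82 with the combination. The high lambda share of IgM cells with the LTβR agonist was thus spread over receptor types, with 9 heavy V genes among the 15 Iglv2 cells with a call, while most of the IgG lambda cells belonged to a few types.

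Usage by isotype was also compared gene by gene in the 2 libraries with enough cells. Of the 40 genes dominant in IgM or IgG cells of both libraries, 24 differed in the same direction in both and 16 in opposite directions. The genes with the largest differences were named by a rule that required the same direction, so their agreement is not a result. As IgG minus IgM, in percentage points, Iglv1 was 6.69 higher with the LTβR agonist and 8.57 higher with the combination, and Igkv8-30 0.909 and 13.6 higher. These differences count cells. By receptor type, all lambda genes together were 5.00 and 6.10% of IgG types in these libraries, and 36.6 and 14.5% of IgM types. Igkv12-44 was 27.7 higher with the LTβR agonist, where all 61 of its cells were IgG, and 0.666 higher with the combination. On the IgM side, Igkv14-126 stood at -9.68 and -5.41, Igkv1-110 at -3.48 and -11.5, and Iglv2 at -27.4 and -4.36. Among the named genes with opposite directions were Igkv12-46, at -5.09 with the LTβR agonist and 4.81 with the combination, and Igkv5-43, at -4.38 and 2.10. IgM cells of the combination were led by Igkv1-110 with 22 of 151 cells, and IgG cells by Igkv8-30 with 59 of 362. The effective number of genes was 9.75 in IgM and 8.42 in IgG cells with the LTβR agonist, and 22.3 and 13.8 with the combination.

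Position in the kappa locus was described with the same split. Kappa V genes lie in either orientation to the J genes, and those in inverse orientation join by inversion of the DNA between. Of the 100 kappa V genes that are not pseudogenes, 62 are inverse. Among kappa cells, inverse genes were dominant in 84.0, 67.3, 65.5 and 62.9%. IgM and IgG cells of the combination differed, with 48.5% (39.7 to 57.3) and 71.6% (66.2 to 76.6), whereas the intervals of those of the LTβR agonist overlapped, with 51.3% (34.8 to 67.6) and 65.8% (58.4 to 72.6). Counted by receptor type, the intervals overlapped in both libraries, with 61.5% of IgM and 57.1% of IgG types after both agents and 53.8% and 54.4% after the LTβR agonist.

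The 4 largest pairs of light and heavy V genes were each seen in 2 or more libraries, while other large pairs were seen in 1. Among the 923 cells with a heavy call there were 308 light and heavy V gene pairs, of which 178 were seen in 1 cell, 28 in 2 or more libraries and 3 in all 4. The 28 shared pairs held 373 cells, or 40.4%. All 3 pairs found in every library were among the 4 largest.

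**Figure D4:**
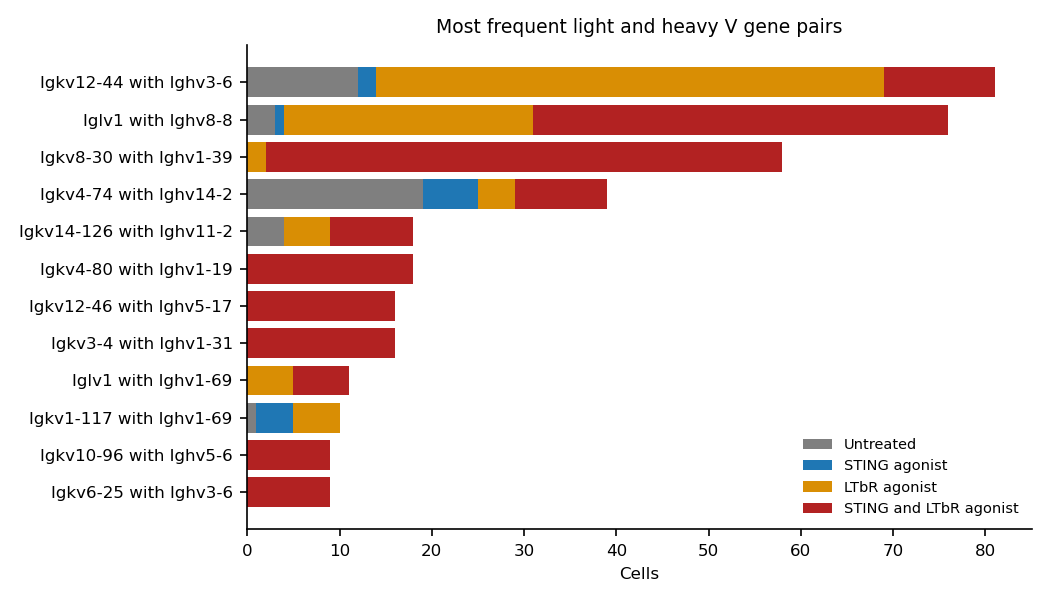
Cells (horizontal axis) with each of the 12 most frequent light and heavy V gene pairs; bar segments give the 4 libraries. Igkv12-44 with Ighv3-6 reached 81 cells over all 4 libraries, and Igkv8-30 with Ighv1-39 reached 58, of which 56 came from the combination library.

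Igkv12-44 was joined with Ighv3-6 in 12, 2, 55 and 12 cells, that is in 12 of 14, 2 of 3, 55 of 58 and 12 of 22 Igkv12-44 cells with a call. Cells with other light chains used Ighv3-6 in 0 of 68, 3 of 48, 10 of 226 and 19 of 484. The pair was IgG throughout, but its subclass differed. Ighg1 led in 11 of 12 untreated and 11 of 12 combination cells, whereas in LTβR agonist tumours Ighg2c led in 29, Ighg1 in 17 and Ighg2b in 9.

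Iglv1 was joined with Ighv8-8 in 3, 1, 27 and 45 cells. Of the 45 in the combination library, 26 were led by Ighg2c and 11 by Ighg1, and of the 27 with the LTβR agonist 16 were led by Ighg1 and 9 by Ighg2c. Igkv4-74 was joined with Ighv14-2 in 19, 6, 4 and 10 cells, with no other heavy partner in the STING agonist and LTβR agonist libraries. The same heavy gene accompanied all 6 untreated Igkv4-57-1 cells, which held no Igkv4-74 UMI.

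Igkv8-30 was joined with Ighv1-39 in 56 of 61 combination cells and in both LTβR agonist cells, and with other heavy genes in the 4 STING agonist cells. Of the 56 cells, 31 were led by Ighg2b, 14 by Ighg2c and 10 by Ighg1. Pairs seen in the combination library alone, named after their values were seen, were Igkv4-80 with Ighv1-19 in 18 cells, Igkv12-46 with Ighv5-17 in 16 and Igkv3-4 with Ighv1-31 in 16, all IgG. The untreated library in turn held Igkv5-43 with Ighv1-22 in 7 cells.

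Igkv14-126 with Ighv11-2, the pair known from B-1a cells that bind phosphatidylcholine, stood apart by isotype. It was found in 4, 0, 5 and 9 cells, all of them IgM, and among cells with a heavy call Ighv11-2 occurred with no other light chain in any library. It was 4 of the 6 IgM cells in the untreated library, and its absence among 54 STING agonist cells allows a share of up to 5.56% by the limit of 3 cells, with an exact upper bound of 6.60%.

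The number of receptor types gave a further view of the spread. Libraries held 31, 29, 113 and 185 types, and types with 5 or more cells held 53.7, 21.6, 40.5 and 54.3% of the cells with a heavy call, a share that grows with the number of cells. The effective number of receptor types, which allows for that number, was 11.5, 27.7, 19.9 and 40.1. In Igkv12-44 cells with the LTβR agonist, 58 cells with a call made up 2 receptor types. In Igkv10-96 cells of that library, 25 cells made up 14, with 11 heavy V genes. These genes had shares of 19.1 and 8.46% by cells and of 1.77 and 12.4% by receptor types.

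Constant genes, which the rule did not use, followed the V gene in all kappa cells and in most lambda cells. Igkc, the kappa constant gene, had most light-chain constant UMIs in all of the 81, 49, 249 and 483 kappa cells. Iglc1, which lies next to the J gene that Iglv1 usually joins, led in 3 of 3, 3 of 5, 51 of 52 and 68 of 69 Iglv1 cells, and Iglc3 led in 3 of the other 4. Iglv2 cells were led by Iglc2 in 12 of 18 cases with the LTβR agonist and in 5 of 8 with the combination. The 3 other Iglv2 cells of the combination were all led by Iglc1, with 138, 194 and 305 Iglc1 UMIs, and all 3 shared Ighv2-4 and IgM.

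Cells with both kinds of light chain were also found among the chosen. In LTβR agonist tumours, 5 Iglv2 cells had more Igkc than lambda constant UMIs, with 118, 156, 265, 297 and 319 Igkc against 94, 108, 190, 195 and 226 Iglc2 UMIs. All 5 were IgM with Ighv5-6, and the next V gene in each was Igkv8-16, with 12 to 39 UMIs. They thus carried the same kappa and the same lambda V gene in each cell. One Iglv1 cell of the STING agonist library also had more Igkc than lambda constant UMIs, with 506 Igkc and 234 Iglc1 UMIs, and held 314 UMIs of Igkv2-137.

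A further 48 cells had 20 or more V UMIs but no gene at 80%, namely 2, 1, 25 and 20. In 46 of them 2 genes gave 90% or more of the V UMIs. The 2 genes were kappa genes of different families in 32 cells, a kappa and a lambda gene in 9 and genes of 1 family in 7, of which 5 were Iglv1 with Iglv2. One pair recurred, as 7 LTβR agonist cells held Igkv10-96 at 51.0 to 58.0% and Igkv12-41 at 40.9 to 48.0%, and all 7 were led by Ighv8-8 and Ighg1. Another 4 pairs, each with 1 heavy gene, were seen in 2 cells apiece.

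Iglv1 was read in most kappa cells at a low level. It had a UMI in 80.2, 85.7, 91.2 and 81.8% of the cells with a dominant kappa gene, and was the second gene of 57 of 81, 37 of 49, 188 of 249 and 308 of 483. Its share of the cell's V UMIs had medians of 0.996, 0.423, 1.15 and 1.08% and reached 12.3, 10.3, 14.7 and 16.9%. In T cell marker cells Iglv1 was seen in 2.14, 1.53, 10.7 and 12.4%, with at most 3 UMIs, whereas kappa cells held up to 303, 462, 355 and 316.

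**Figure D5:**
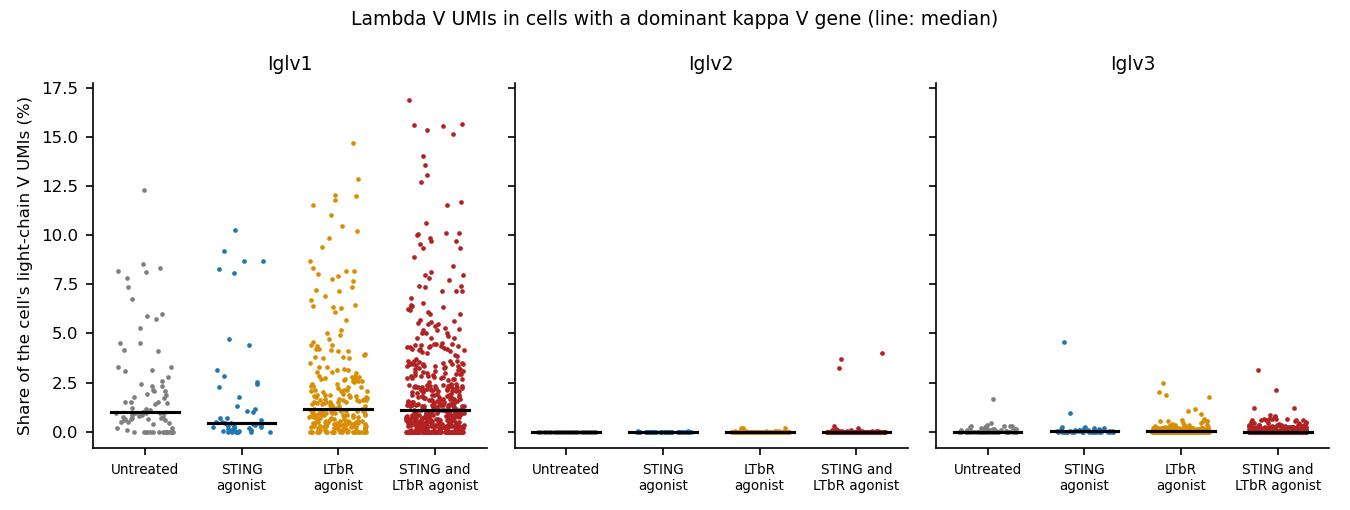
Share of the cell's light-chain V UMIs (%, vertical axis) from Iglv1, Iglv2 and Iglv3 in cells with a dominant kappa gene, 1 point per cell, with the median as a line, in the 4 libraries. Iglv1 reached 16.9%, whereas Iglv2 stayed at or below 4.00% and Iglv3 at or below 4.55%.

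Iglv2 and abundant kappa genes were read in far fewer cells, and Iglv3 in an intermediate number. Iglv2 had a UMI in 0, 8.16, 4.02 and 4.14% of kappa cells, and Igkv12-44, the most frequent gene of the LTβR agonist library, in 19.1% of the other kappa cells there. Iglv3 had a UMI in 40.7, 57.1, 50.2 and 37.5%, so the kappa cells held 70.3, 85.7, 79.5 and 50.1% of all Iglv3 UMIs, although Iglv3 was dominant in 2 cells. Summed over all kappa cells, the Iglv1 UMIs came with fewer Iglc1 UMIs than in Iglv1 cells, at 8.81, 12.5, 21.7 and 19.3 Iglc1 per 100 Iglv1 UMIs against 18.6, 15.3, 47.6 and 41.2. In the kappa cells with 20 or more Iglv1 UMIs, a choice that itself raises the Iglv1 count, the values were 5.95, 6.71, 12.3 and 9.66. By isotype this did not hold throughout, as IgA kappa cells of the LTβR agonist library stood at 77.5, and IgM and IgA kappa cells of the combination at 58.7 and 44.9. IgG kappa cells had a higher median share of Iglv1 than IgM kappa cells in all 4 libraries, with 1.47 against 0.645% for the LTβR agonist and 1.70 against 0.311% for the combination. Whether antisense reads had a part in these Iglv1 counts was not tested. The kappa cells held 13.5, 9.52, 7.35 and 12.4% of the Iglv1 UMIs of their libraries, so a library sum of Iglv1 is not a measure of lambda cells alone.

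Genes of light-chain joining were sought in the same cells. Rag1 and Rag2, which cut the DNA in V to J joining, Dntt, which adds bases at the joint, and Igll1, part of the surrogate light chain, had no UMI in any chosen cell. Vpreb1 and Vpreb2 were not analysed here. The Igkj and Iglj genes had no UMI in any deposited cell. As each joined light chain holds a J gene, these counts do not show that J genes were absent. Vpreb3 was seen in 18, 20, 64 and 65 chosen cells. Of the transcription factors of immunoglobulin genes, Pou2af1 was detected in 63.1, 90.7, 88.4 and 73.1% of chosen cells, Pou2f2 in 57.1, 70.4, 67.4 and 54.6%, and Spib in 0, 2, 2 and 3 cells.

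Summed over all deposited cells, light-chain V genes came to 3009, 2758, 6878 and 10872 CPM, the UMIs of a gene per 1000000 UMIs of the library. The log2 ratio of this sum to untreated was -0.13, 1.19 and 1.85 for the STING agonist, the LTβR agonist and the combination. Chosen cells held 89.6, 97.9, 93.2 and 92.0% of these V UMIs, so the sum moves with their number and with the V UMIs in each. While their share of deposited cells was 0.364, 2.27 and 3.58 times that of untreated, the median V UMIs per chosen cell went from 728 to 2900.5, 1049 and 557.5. Light-chain V UMIs made up a median of 14.7, 14.8, 9.58 and 9.87% of a chosen cell's UMIs. A gene was called when its CPM differed 2-fold or more, among genes with 200 or more UMIs over both libraries. With the STING agonist 11 of 35 members were higher, where 4.45% of all genes tested were, and 18 were lower, where 6.01% of all genes were. With the LTβR agonist 39 of 57 were higher (1.88% of all genes tested) and 13 lower (1.21%), and with the combination 51 of 65 were higher (2.08%) and 7 lower (2.55%). The combination was higher than the STING agonist in 57 of 65 members (3.33%) and lower in 3 (3.21%). It was higher than the LTβR agonist in 40 of 72 (0.688%) and lower in 17 (0.886%).

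The median log2 ratio of the members was -1.16, 3.64 and 7.67 against untreated, beside -0.36, -0.07 and -0.16 over all genes tested. With members at 0 in 1 library set to 3 UMIs, these medians were -1.16, 3.64 and 7.56. A member passes the filter when it is high in either library, so these counts describe the members that passed and not all 163. Single cells weighed heavily on such sums. In the untreated library, 1 cell gave 83.2% of the Igkv1-110 UMIs, 42.8% of the Igkv12-44 UMIs came from 1 cell that missed the 80% rule, and 1 cell gave 91.5% of the Igkv1-117 UMIs.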

How the data were processed

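Each of 4 matrices, 1 per group, gives for every gene the molecules counted in each CD45+ cell by their unique molecular identifiers (UMIs). The authors made the deposited counts with Cell Ranger and gave them without normalization. The matrix headers name Cell Ranger 8.0.1, the submitters' processing notes Cell Ranger 7.1.0 and mm10. The labels name a GEM-X 5′ v3 kit and the methods an earlier one. All deposited cells were used. Libraries held 62248447, 85855398, 73704334 and 52109958 UMIs.

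The members and lists were chosen with earlier results of these data known, and part of the lists is not reported here. Isotype was the class with most heavy-chain constant UMIs, 3 or more. The named genes were the 12 with the highest mean share over libraries, every Iglv gene, the 3 largest rises and falls in share per treated library against untreated, and the 3 largest in each direction from IgM to IgG. CPM was computed from summed UMIs with 0.5 UMI added for ratios. With 1 library per group no test was run. Doublets were not called, and cells with 2 V genes were counted apart. Coordinates and sequences came from GENCODE M21, in which all 163 members were found by identifier. Steps were tested on simulated data. Python 3.11.15 with numpy, scipy and pandas was used. Alternatives covered UMI and dominance minimums, cell limits, markers, thinning to 2000 UMIs and counting each receptor type once.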

Additional observations from a re-analysis of the deposited data

Results flagged for a closer look

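In cells with fewer than 20 light-chain V UMIs, 3 V genes reached 200 or more UMIs in a treated library in which they were dominant in no chosen cell, at a higher CPM than in such untreated cells. Iglv2 had 504 UMIs in 462 cells of the STING agonist library, at most 3 per cell, and made up 10.0% of the light-chain V UMIs outside the cells with 20 or more. Igkv14-111 had 236 UMIs in 209 cells of the same library, at most 5 per cell. Igkv12-89 had 396 UMIs in 365 cells of the LTβR agonist library, at most 12 per cell, and 1 cell with 20 or more V UMIs held at least 20% of them from this gene. Groups of 1 library allow no check for samples that stand apart.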

How the results depend on the processing

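Of 186 values recomputed under the alternatives, 160 stayed within the interval of the reported value, or for counts within 1.5 times, and 26 moved. Most of these values are shares that have no sign, and orders between them did change. With each receptor type counted once, the untreated library went from the lowest to the highest effective number of genes, and lambda in the combination from 12.6% of IgM and 15.5% of IgG cells to 14.5 and 6.10%, with intervals that overlapped in both counts. The separation of the lambda intervals also varied, as the combination interval lay above the untreated one in 2 of 8 alternatives. The combination share itself was above the untreated share in all 8. The ratios of chosen cells to untreated ranged from 0.356 to 0.534 for the STING agonist, 2.17 to 3.22 for the LTβR agonist and 3.49 to 6.54 for the combination, with 0.534, 3.22 and 6.54 after thinning each cell to 2000 UMIs, which also gave 14.01 effective genes in the untreated library. At 95% dominance, lambda was 19.9% of combination IgG cells. With each receptor type counted once, lambda was 10.3% in the combination library, 5.00% of LTβR agonist IgG and 6.10% of combination IgG. In that count Igkv4-74 was 9.68% of untreated, Igkv12-44 1.77% of LTβR agonist, and Iglv1 7.03% and Igkv8-30 3.24% of combination types, and the effective numbers of genes were 58.1, 22.7 and 42.2 in the untreated, LTβR agonist and combination libraries, the first from 31 types of 24 genes, which the index can exceed. By V family, the family of Igkv4-74 held 39.3% of untreated and that of Igkv8-30 16.01% of combination cells. Without the UMI filter 29, 75 and 86 members were 2-fold higher and 42, 20 and 11 lower than untreated, from more genes tested. With the top cell of each gene left out, 9, 6 and 4 were lower, from fewer genes tested. The cell limits of the study, the marker requirement, 10 or 50 V UMIs and 60% dominance moved none of the 20 values each gave beyond these limits, which are wide for few cells, as the cell limits of the study took lambda in the STING agonist library from 9.26 to 4.17%. No paired analysis was possible because each group had 1 library. The small number of untreated and STING agonist cells, 84 and 54, limits what their usage can show.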
